A study of Homo sapiens with 8 samples.

Results

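The 10 genes described here are chemokines, cytokines, an inflammatory pattern recognition protein, an antioxidant enzyme and feedback inhibitors that are known targets of the transcription factor NF-kappaB: CXCL1, CXCL2, CXCL3, IL8, IL6, LIF, PTX3, SOD2, NFKBIA and TNFAIP3. They were chosen by name, with earlier results of these data known. All 10 were found among the 23368 gene symbols of the count files, where interleukin 8 stands as IL8 and not as CXCL8. The cells were U87MG, an established human glioblastoma line grown in DMEM with fetal bovine serum. RNA was sequenced from untreated cells (control) and from cells exposed to enzalutamide, an antagonist of the androgen receptor, for 4, 24 or 48 h, with 2 libraries in each of the 4 groups. The labels give no enzalutamide concentration, no vehicle and no time for the untreated cells. The labels' extraction protocol speaks of cells that had differentiated, a step that the growth and treatment texts do not describe. Nothing in them tells if the replicates were grown separately, so each p-value measures only the spread between replicate libraries, and that spread may be technical.

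NF-kappaB is a family of dimers built from RELA, RELB, REL and the processed products of NFKB1 and NFKB2. In resting cells the dimers are held in the cytoplasm by inhibitors such as the product of NFKBIA. Signals from interleukin 1, tumour necrosis factor or Toll-like receptors activate a kinase complex that marks this inhibitor for destruction, after which the dimers enter the nucleus and bind kappaB sites near their target genes. Among those targets are the inhibitor itself and TNFAIP3 (the ubiquitin-editing enzyme A20), which close a negative feedback loop. Secreted targets include the neutrophil-attracting CXC chemokines and the cytokine IL6, which is known as a product of glioblastoma cells in culture.

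The promoters of 8 of these genes are shown because a kappaB element close to the transcription start is the feature by which the group is known. The sequences are RefSeq's for assembly GRCh38.p14, from position -110 to position -21 relative to the annotated start, 5′ to 3′ on the strand of the gene. Capitals mark GGNNTTTCC on either strand.
CXCL1, chr4:73869283-73869372, plus strand: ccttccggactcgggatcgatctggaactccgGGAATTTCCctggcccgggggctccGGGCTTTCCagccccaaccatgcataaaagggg
CXCL2, chr4:74099216-74099305, minus strand: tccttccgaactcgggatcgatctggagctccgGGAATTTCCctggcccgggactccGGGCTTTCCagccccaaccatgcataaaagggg
CXCL3, chr4:74038710-74038799, minus strand: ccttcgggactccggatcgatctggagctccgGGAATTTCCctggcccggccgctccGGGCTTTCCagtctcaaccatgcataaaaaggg
IL8, chr4:73740459-73740548, plus strand: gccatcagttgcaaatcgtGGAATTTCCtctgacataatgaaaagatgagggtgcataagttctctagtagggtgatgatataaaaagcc
IL6, chr7:22727090-22727179, plus strand: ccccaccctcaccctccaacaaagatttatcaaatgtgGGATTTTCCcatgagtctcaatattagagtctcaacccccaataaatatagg
NFKBIA, chr14:35404770-35404859, minus strand: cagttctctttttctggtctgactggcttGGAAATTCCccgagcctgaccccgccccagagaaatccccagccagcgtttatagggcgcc
TNFAIP3, chr6:137867149-137867238, plus strand: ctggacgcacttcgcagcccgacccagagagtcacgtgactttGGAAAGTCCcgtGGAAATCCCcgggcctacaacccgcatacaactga
PTX3, chr3:157436740-157436829, plus strand: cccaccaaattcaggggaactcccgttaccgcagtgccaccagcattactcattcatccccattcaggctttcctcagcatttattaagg

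The RefSeq windows used here run from 250 bases before to 50 bases after each start. They matched 9 of the 10 genes, SOD2 with 4 windows and the others with 1 each, and LIF had no entry. The motif GGNNTTTCC, searched on both strands, was present in 7 of the 9 genes, against 6.26% of all 35116 windows. The longer GGGAATTTCC, taken from the first match in CXCL1 with the base before it, was present in 4 of the 9 (CXCL1, CXCL2, CXCL3 and NFKBIA). It was present in 0.145% of all windows. The CXCL1 match was fixed in advance by this choice, and the windows of CXCL2 and CXCL3 resemble that of CXCL1, as given below. The count of 4 therefore cannot be weighed against that share. CXCL1, CXCL2 and CXCL3 each carried GGNNTTTCC a second time, from position -53 to position -45. TNFAIP3 held it as a pair on the opposite strand, and NFKBIA had a further match from -242 to -234, outside the stretch shown. PTX3 had no GGNNTTTCC, but 2 overlapping matches to the kappaB consensus GGGRNWYYCC (R is A or G, W is A or T, Y is C or T, N is any base). They ran from -97 to -88 and, on the opposite strand, from -96 to -87. This consensus was found in 7 of the 9 genes and in 5.91% of all windows. None of the SOD2 windows held any of these patterns. IL8 was the only 1 of the 9 genes with the AP-1 pattern TGANTCA, from -137 to -131, which 7.71% of all windows hold. The TATA box pattern TATAAA, held by 11.5% of all windows, was present in IL8 and, on the opposite strand, in NFKBIA. Across the full windows CXCL1 and CXCL3 were 82.5% identical, CXCL2 and CXCL3 73.7%, and CXCL1 and CXCL2 69.7%, while all other pairs of the 9 genes (the first window of SOD2) lay between 35.2 and 51.1%. These matches describe letters and say nothing of what binds there.

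Total counts per library were 24620833 to 37162565, and the 10 genes held 0.460 to 0.715% of them. Levels are given as CPM, a gene's share of the scaled library total, with TMM factors, which correct for differences in library composition. SDs are between the 2 libraries of a group, and SEs are those of log2 changes in the fit. Replicate libraries correlated at 0.992 to 0.995 on the log2 CPM scale across genes. The scaling matters at 48 h: when libraries were scaled by their totals alone (below, with library totals), the median log2 change of all tested genes against control moved from -0.022 to -0.30. The share of called genes that were higher than control then went from 49.8 to 29% at 48 h, from 52.4 to 38.2% at 4 h and from 57.9 to 41.4% at 24 h. The same share went from 47.1 to 32.1% for 48 h against 24 h and from 49.7 to 35.5% for 48 h against 4 h. Of the immune markers, AIF1, CD3E and MS4A1 were at 0 in every library, which allows up to 0.12 CPM in the shallowest one, and PTPRC had at most 6 counts. CD68, CSF1R and HLA-DRA were present, and the summed CPM of the 10 immune markers was 1063 to 1143 in control, 1022 to 1054 after 4 h, 1034 to 1076 after 24 h and 1436 to 1582 after 48 h. Of these 3 tested markers, 1 was lower after 4 h, none was called after 24 h and 2 were higher after 48 h, and their part in the results below was not tested. Over all tested genes, 15.0% were higher and 13.6% lower after 4 h, and 12.9 and 9.39% after 24 h. After 48 h 33.3% were higher and 33.5% lower. These shares also apply to the marker lists that follow. Among the glioma and astrocyte markers VIM and CD44 were abundant (7991 and 1895 CPM in control), whereas AQP4 was at 0, SOX2 had at most 1 count and GFAP was at 0.430 CPM. Of the 6 tested markers of that list, 1 was higher and 1 lower after 4 h, 2 were higher and 1 lower after 24 h, and 2 were higher and 3 lower after 48 h. Of the 4 tested endothelial markers, 1 was higher after 4 h, 1 was higher and 1 lower after 24 h, and 1 was lower after 48 h, and their summed CPM ran from 5.27 to 19.3. In bulk RNA, fewer cells of a kind and less RNA per cell cannot be told apart.

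At 4 h of enzalutamide most of the 10 genes were lower than in control, while LIF and IL8 were higher. At 24 h the chemokines other than IL8, and IL6, PTX3, SOD2, NFKBIA and TNFAIP3, were lower and only LIF was higher. At 48 h CXCL3, SOD2 and NFKBIA stood above control, and CXCL1, IL6, LIF and PTX3 stood below it. Such a division was near that of all tested genes, and the rises were not called with library totals. A gene was called when its Benjamini-Hochberg adjusted p in edgeR's quasi-likelihood test, adjusted over all 14448 genes tested, was under 0.05, and all 10 genes passed the filter on low counts.

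At 4 h, 2 of the 10 genes rose and 7 fell, whereas 15.0% of all tested genes rose and 13.6% fell. At 24 h there was 1 gene that rose and 8 that fell, against 12.9% and 9.39% of all tested genes. At 48 h there were 3 that rose and 4 that fell, against 33.3% and 33.5%, so that with 1 gene in 3 moving each way this count was near the background. Their median log2 change was -0.49, -0.55 and -0.013 at the 3 times, beside -0.0040, 0.015 and -0.022 over all tested genes. As the 10 genes were chosen with earlier results of these data known, these counts and medians describe the group and do not test it. With library totals, the counts at 4 and 24 h were the same, but at 48 h none of the 10 genes rose and 5 fell. For 48 h this scaling called 6729 of the 14448 tested genes lower and 2742 higher. The falls among the 10 genes were thus near that background. Its calls over all tested genes were 2667 lower and 1651 higher for 4 h. For 24 h they were 1920 lower and 1359 higher. The comparisons between treated times had no controls in them. From 4 to 24 h, 3 of the 10 rose and 5 fell (background 21.2% and 20.3%). From 24 to 48 h, 5 rose and 3 fell (31.5% and 35.3%). Between 4 and 48 h all 10 were called, 6 higher and 4 lower at 48 h (34.5% and 35.0%). The 3 comparisons with control share the same 2 control libraries, and their values are therefore set side by side without a measure of their likeness.

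**Figure D1:**
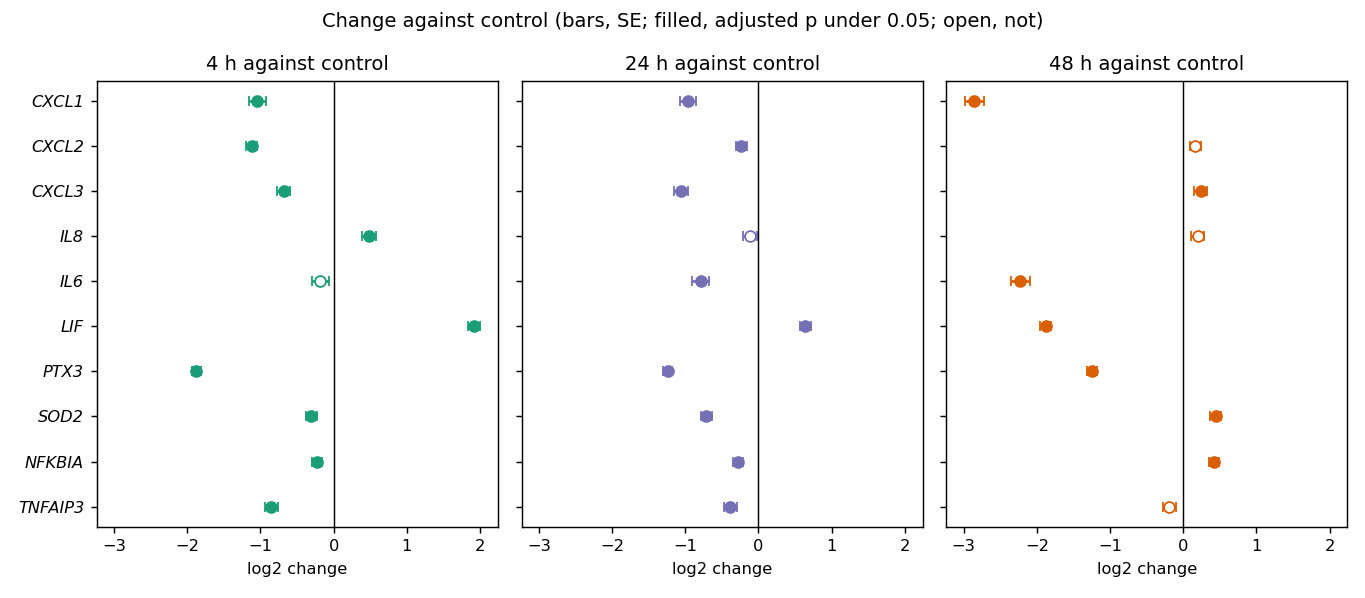
Log2 change against control (horizontal axis) of each of the 10 genes (vertical axis) after 4, 24 and 48 h of enzalutamide, from edgeR; bars are standard errors and filled points mark an adjusted p under 0.05. LIF changes sides from 1.92 at 4 h to -1.88 at 48 h, and CXCL1 and IL6 lie furthest to the left at 48 h, at -2.86 and -2.22.

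The feedback inhibitors come first. NFKBIA encodes IkappaB-alpha, the inhibitor that holds NF-kappaB dimers in the cytoplasm. Its level was 133 and 129.7 CPM in the 2 control libraries, 109.7 and 115 after 4 h, 107 and 109.5 after 24 h, and 183 and 167 after 48 h. The 4 libraries at 4 and 24 h lay below both controls and the 48 h libraries above them, with no overlap. NFKBIA fell at 4 h by 0.23 on the log2 scale (SE 0.07, edgeR adjusted p = 0.0238). The fall at 24 h was of similar size, with a log2 change of -0.28 (SE 0.07, edgeR adjusted p = 0.0115). Both of these small changes missed the threshold when any 1 library of the 2 groups compared was left out, with adjusted p of 0.0754 to 0.175 at 4 h and 0.0527 to 0.103 at 24 h. At 48 h NFKBIA was 1.33-fold higher than control (log2 change 0.42, SE 0.06, edgeR adjusted p = 0.000160). With library totals the value was 0.14 (adjusted p = 0.0720). The 4 and 24 h levels did not differ beyond their spread (edgeR adjusted p = 0.568). From 24 to 48 h NFKBIA rose 1.62-fold (SE of the log2 change 0.07, edgeR adjusted p = 3.03e-06), the 48 h level being the highest of the 4.

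TNFAIP3, whose product A20 removes ubiquitin chains from signalling proteins upstream of NF-kappaB, took a different course. Its level was 75.7 and 82.9 CPM in control, 43.9 in both libraries after 4 h, 59.4 and 62.0 after 24 h, and 63.4 and 75.6 after 48 h. All treated libraries lay below both controls, the higher of the 48 h libraries only just. TNFAIP3 fell 1.81-fold at 4 h (log2 change -0.85, SE 0.09, edgeR adjusted p = 5.61e-05). At 24 h it was 1.31-fold below control (log2 change -0.39, SE 0.09, edgeR adjusted p = 0.00961), a call that was lost without control library 2 (adjusted p = 0.0933), without 24 h library 1 (0.0930) or without 24 h library 2 (0.0577). At 48 h the log2 change was -0.19 (SE 0.09) and was not called (edgeR adjusted p = 0.0745). Without 48 h library 2 it was -0.31 (adjusted p = 0.00168), and with library totals -0.47 (adjusted p = 0.00138), and it was also called with a filter of at least 5 CPM in at least 2 libraries (0.0181). From 4 to 24 h TNFAIP3 rose 1.38-fold (SE of the log2 change 0.09, edgeR adjusted p = 0.00172). The order of its levels was therefore 4 h, 24 h, 48 h and control, in which 24 and 48 h (edgeR adjusted p = 0.0691) and 48 h and control did not differ beyond their spread. The 24 and 48 h levels did differ without 48 h library 1 (log2 difference 0.32, adjusted p = 0.00138), with DESeq2's size factors (0.0307) and in DESeq2's own test (0.0343). The ratio of the 2 feedback genes within a library was above both controls at 4 and 48 h and close to them at 24 h: there were 1.75 and 1.56 counts of NFKBIA per count of TNFAIP3 in control, 2.50 and 2.61 after 4 h, 1.81 and 1.77 after 24 h, and 2.89 and 2.21 after 48 h.

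CXCL1, CXCL2 and CXCL3 are neighbouring genes on chromosome 4 that encode closely related neutrophil attractants acting on the receptor CXCR2. They fell together at 4 h and then separated. CXCL1 was at 35.1 and 32.5 CPM in control, 16.9 and 15.9 after 4 h, 17.9 and 16.8 after 24 h, and 5.31 and 4.02 after 48 h, where it rested on 156 and 117 counts. Every treated library was below both controls. CXCL1 fell 2.06-fold at 4 h (log2 change -1.04, SE 0.11, edgeR adjusted p = 7.05e-05). At 24 h it was 1.95-fold below control (log2 change -0.96, SE 0.11, edgeR adjusted p = 0.000151), and the 4 and 24 h levels did not differ beyond their spread (adjusted p = 0.622). At 48 h it was 7.24-fold below control (log2 change -2.86, SE 0.13, edgeR adjusted p = 1.43e-08), the largest fall among the 10 genes. The step from 24 to 48 h alone was 3.71-fold (SE of the log2 change 0.13, edgeR adjusted p = 3.25e-07).

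CXCL2 was at 156 and 135 CPM in control, 68.8 and 65.2 after 4 h, 121 and 127 after 24 h, and 164 and 163 after 48 h. It was lowest at 4 h, and from there its level was higher at each later time. At 4 h CXCL2 was 2.18-fold below control (log2 change -1.12, SE 0.08, edgeR adjusted p = 3.08e-06). At 24 h the log2 change was -0.23 (SE 0.07, edgeR adjusted p = 0.0434). This small difference was lost without any 1 of the control 1, 4 h or 24 h libraries (adjusted p from 0.0722 to 0.371). At 48 h the log2 change from control was 0.17 (SE 0.07) and was not called (edgeR adjusted p = 0.069). It was called without control library 1 (adjusted p = 0.0153), without 48 h library 2 (0.0487) and with DESeq2's size factors (0.0498), and with library totals it was -0.11 (adjusted p = 0.190). From 4 to 24 h CXCL2 rose 1.85-fold (SE of the log2 change 0.08, edgeR adjusted p = 5.56e-06). A further rise of 1.32-fold followed from 24 to 48 h (SE of the log2 change 0.07, edgeR adjusted p = 0.000585).

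CXCL3 was at 69.6 and 59.7 CPM in control, 42.0 and 38.6 after 4 h, 31.2 and 30.7 after 24 h, and 80.6 and 71.9 after 48 h. Its lowest point was thus 24 h, when CXCL2 was already rising. CXCL3 fell 1.61-fold at 4 h (log2 change -0.68, SE 0.09, edgeR adjusted p = 0.000302). At 24 h it was 2.09-fold below control (log2 change -1.06, SE 0.09, edgeR adjusted p = 2.36e-05). From 4 to 24 h it fell by 0.38 on the log2 scale (SE 0.09, edgeR adjusted p = 0.00790), which was lost without 4 h library 1 (adjusted p = 0.0758) or 24 h library 2 (0.0593). It then rose 2.46-fold from 24 to 48 h (SE of the log2 change 0.09, edgeR adjusted p = 3.93e-07). Both 48 h libraries stood above both controls, with a log2 change of 0.24 (SE 0.09, edgeR adjusted p = 0.0352). This call was lost without control library 2 (adjusted p = 0.288), 24 h library 1 (0.0542), 24 h library 2 (0.0535) or 48 h library 1 (0.135), and in a fit of these 2 groups only (0.110). It was also lost with the filter of 5 CPM (0.139), and with library totals the value was -0.040 (adjusted p = 0.688).

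Ratios of counts within a library do not depend on the scaling, and they show the separation of the 3 neighbours. Per count of CXCL1 there were 4.44 and 4.16 counts of CXCL2 in control, 4.07 and 4.09 after 4 h, 6.78 and 7.54 after 24 h, and 30.9 and 40.4 after 48 h. The first step, from control to 4 h, left this ratio close to where it was. For CXCL3 the ratio to CXCL1 was 1.98 and 1.83 in control, 2.48 and 2.42 after 4 h, 1.75 and 1.83 after 24 h, and 15.2 and 17.9 after 48 h. Per count of CXCL2 there were 0.446 and 0.441 counts of CXCL3 in control, 0.611 and 0.592 after 4 h, 0.258 and 0.243 after 24 h, and 0.491 and 0.442 after 48 h. The CXCL3 to CXCL2 ratio therefore moved up, down and back, whereas both ratios to CXCL1 were highest at 48 h. No test was run on the ratios. Each of these genes has a single coding transcript in GENCODE v29, so their levels can be compared per kilobase: in control CXCL1 was at 30.8, CXCL2 at 119.6 and CXCL3 at 60.1 CPM per kb, and at 48 h they were at 4.25, 134 and 71.0. The transcripts resemble each other, and of the stretches of 36 bases in CXCL1, CXCL2 and CXCL3, 12.8, 16.7 and 8.17% also occur in transcripts of other genes, mainly of each other. For stretches of 75 bases the shares were 0.293, 2.27 and 2.30%. Neither the read length nor the rule for reads that match several genes is given in the sources used here, so part of the counts of these 3 genes may be exchanged between them.

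**Figure D2:**
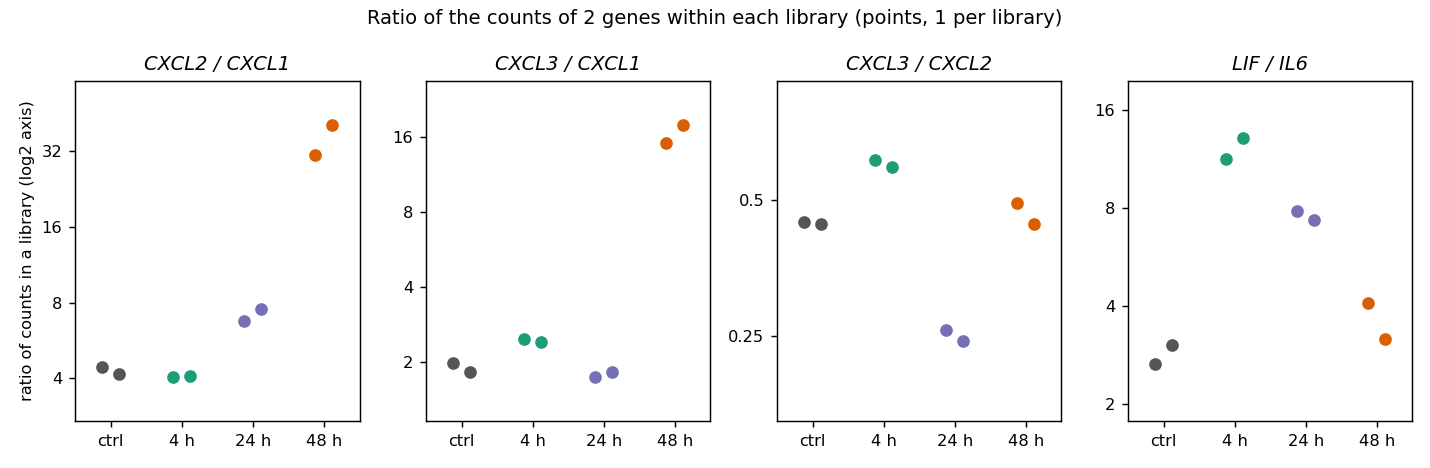
Ratio of counts within each library (vertical axis, log2 scale, no unit) for 4 pairs of the genes, 1 panel each, against group (horizontal axis: control, 4, 24 and 48 h); each point is 1 library. CXCL2 per CXCL1 lies between 4.07 and 7.54 up to 24 h and at 30.9 and 40.4 after 48 h.

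IL8, the best known human neutrophil attractant, acts through CXCR1 and CXCR2 and lies in the same chemokine cluster. It was at 2123 and 1885 CPM in control, 2906 and 2711 after 4 h, 1885 and 1807 after 24 h, and 2542 and 2051 after 48 h. The 4 h libraries stood above all others, and the ranges at 24 and 48 h overlapped that of control. Unlike its 3 relatives, which fell, IL8 rose 1.40-fold at 4 h (log2 change 0.49, SE 0.09, edgeR adjusted p = 0.00282). At 24 h the log2 change from control was -0.12 (SE 0.09, edgeR adjusted p = 0.406). At 48 h it was 0.20 (SE 0.09, edgeR adjusted p = 0.0829), and neither was called. The 48 h value depended on single libraries: it was 0.35 without 48 h library 2 (adjusted p = 0.000212), it was called without control library 1 (0.0499) and with no filter (0.0334), and it was -0.084 with library totals (adjusted p = 0.385). From 4 to 24 h IL8 fell 1.52-fold (SE of the log2 change 0.09, edgeR adjusted p = 0.000405). From 24 to 48 h it rose 1.24-fold (SE of the log2 change 0.09, edgeR adjusted p = 0.0109). That rise was lost without 24 h library 2 (adjusted p = 0.0700), without 48 h library 1 (0.0557) and with library totals (0.315). From lowest to highest the order was 24 h, control, 48 h and 4 h, and the step from 48 h to 4 h (log2 change of 48 h against 4 h -0.29, SE 0.09, edgeR adjusted p = 0.0158) was lost without 4 h library 1 (adjusted p = 0.117) or 48 h library 2 (0.0841). Per count of CXCL1 there were 60.5 and 58.0 counts of IL8 in control, 172 and 170.1 after 4 h, 106 and 108 after 24 h, and 479 and 510 after 48 h. No stretch of 36 bases of IL8 occurs in a transcript of another gene.

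**Figure D3:**
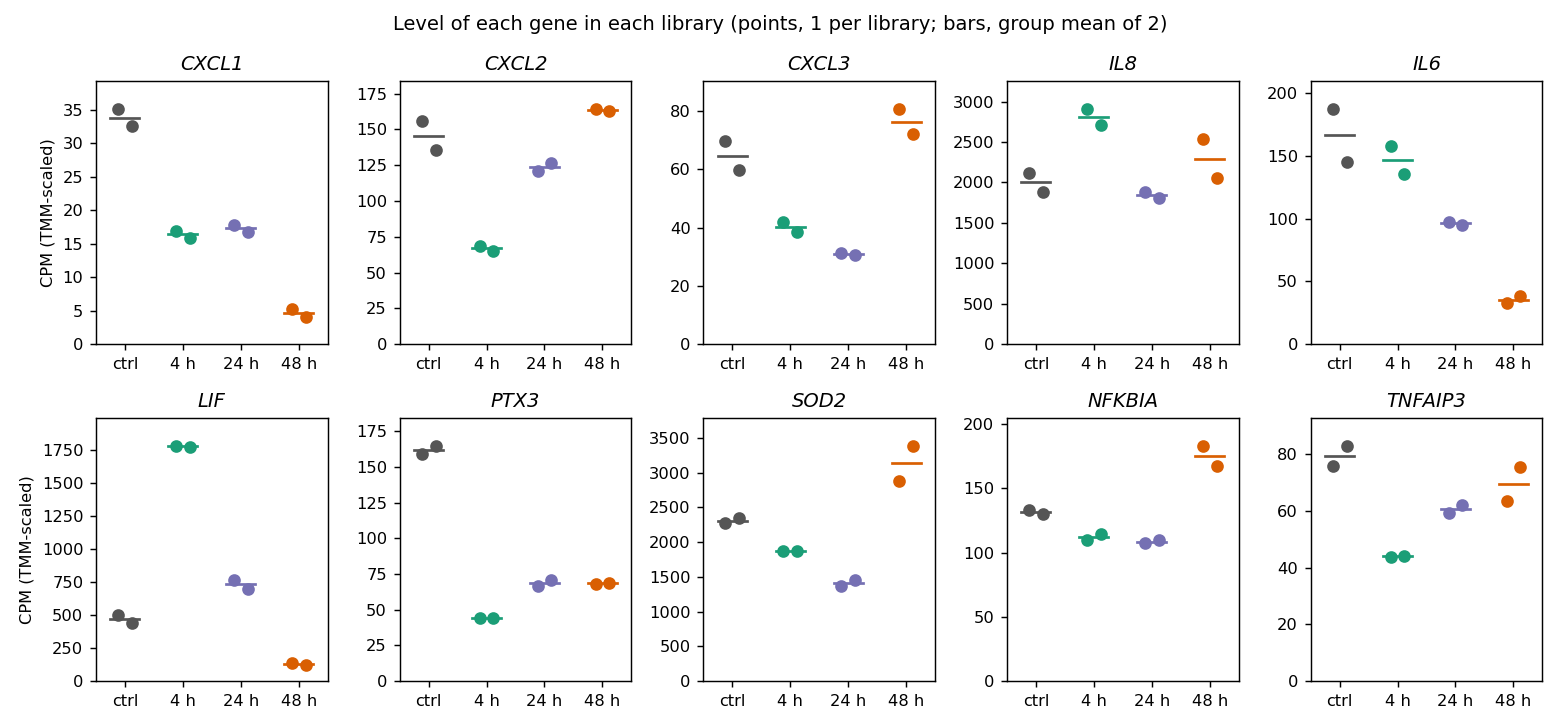
Level in CPM (vertical axis, 1 panel per gene) in each library by group (horizontal axis: control, 4, 24 and 48 h of enzalutamide); points are libraries and bars are the means of 2 libraries, on axes that start at 0. CXCL1 and IL6 end at 4.66 and 35.6 CPM at 48 h, below every other group, whereas SOD2 and NFKBIA have their highest means, 3136 and 175 CPM, at that time.

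The cytokines IL6 and LIF belong to 1 family that signals through the shared receptor subunit gp130 (IL6ST) to STAT3. IL6 was at 187 and 145 CPM in control, 158 and 135 after 4 h, 97.2 and 95.1 after 24 h, and 32.8 and 38.3 after 48 h. Control and 4 h overlapped, and the later groups lay below both. The log2 change at 4 h was -0.18 (SE 0.12) and was not called (edgeR adjusted p = 0.267). Without control library 1 it was 0.0093. At 24 h IL6 was 1.73-fold below control (log2 change -0.79, SE 0.12, edgeR adjusted p = 0.000806). At 48 h the fall was 4.67-fold (log2 change -2.22, SE 0.12, edgeR adjusted p = 6.19e-08). The order was thus control and 4 h, 24 h, 48 h, with a fall of 1.52-fold from 4 to 24 h (SE of the log2 change 0.12, edgeR adjusted p = 0.00175) and of 2.70-fold from 24 to 48 h (SE 0.12, edgeR adjusted p = 1.44e-06). Of the stretches of 75 bases of IL6, 17.1% also occur in transcripts of the gene AC073072.1, so part of the reads of these 2 genes may not be told apart.

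LIF, the leukaemia inhibitory factor, showed the largest swing of the group. It was at 499 and 443 CPM in control, 1782 and 1774 after 4 h, 764 and 699.5 after 24 h, and 134 and 122 after 48 h. The 4 groups did not overlap, with 4 h highest, then 24 h, control and 48 h. LIF rose 3.78-fold at 4 h (log2 change 1.92, SE 0.08, edgeR adjusted p = 6.47e-08). At 24 h it was still 1.55-fold above control (log2 change 0.64, SE 0.07, edgeR adjusted p = 0.000166). At 48 h it was 3.68-fold below control (log2 change -1.88, SE 0.08, edgeR adjusted p = 7.41e-09). Between the treated times it fell 2.43-fold from 4 to 24 h (SE of the log2 change 0.08, edgeR adjusted p = 3e-07). From 24 to 48 h the fall was 5.72-fold (SE of the log2 change 0.08, edgeR adjusted p = 1.11e-09), so the level at 48 h was 13.9-fold below that at 4 h. The 2 cytokines of the family moved apart at 4 h: there were 2.67 and 3.05 counts of LIF per count of IL6 in control, 11.3 and 13.1 after 4 h, 7.86 and 7.36 after 24 h, and 4.08 and 3.18 after 48 h. Antisense and overlapping transcripts, LIF-AS1 among them, hold 4.99% of the stretches of 36 bases of LIF.

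PTX3, a secreted pattern recognition protein of the pentraxin family, was at 159.5 and 165 CPM in control, 44.4 and 44.1 after 4 h, 66.3 and 70.9 after 24 h, and 68.0 and 68.8 after 48 h. All 6 treated libraries lay below the controls, and the replicates of each group were close. PTX3 fell 3.67-fold at 4 h (log2 change -1.87, SE 0.07, edgeR adjusted p = 2.4e-08), the largest fall of the group at that time. At 24 h it was 2.36-fold below control (log2 change -1.24, SE 0.06, edgeR adjusted p = 1.19e-06). At 48 h the difference was 2.37-fold (log2 change -1.25, SE 0.06, edgeR adjusted p = 3.6e-08). From 4 to 24 h PTX3 rose 1.55-fold (SE of the log2 change 0.07, edgeR adjusted p = 2.42e-05). The order was 4 h, then 24 and 48 h, then control, and the levels at 24 and 48 h did not differ beyond their spread (edgeR adjusted p = 0.959). With library totals, PTX3 was lower at 48 h than at 24 h, with a log2 change of -0.22 (adjusted p = 0.0131).

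SOD2, the manganese superoxide dismutase of mitochondria, was at 2278 and 2346 CPM in control, 1873 and 1866 after 4 h, 1362 and 1456 after 24 h, and 2886 and 3386 after 48 h. The 4 groups did not overlap, and their order from low to high was 24 h, 4 h, control and 48 h, with 24 h below 4 h by the test as well (edgeR adjusted p = 0.00108). SOD2 fell 1.24-fold at 4 h (log2 change -0.31, SE 0.07, edgeR adjusted p = 0.00949). That call was lost without control library 2 (adjusted p = 0.0682), 4 h library 1 (0.0677) or 4 h library 2 (0.0694). At 24 h it was 1.64-fold below control (log2 change -0.71, SE 0.07, edgeR adjusted p = 6.42e-05). At 48 h it was 1.36-fold above control (log2 change 0.44, SE 0.07, edgeR adjusted p = 0.000256). With library totals the 48 h value was 0.16 (adjusted p = 0.0899). From 24 to 48 h SOD2 rose 2.23-fold (SE of the log2 change 0.07, edgeR adjusted p = 1.62e-07). Of the stretches of 36 bases of SOD2, 21.2% also occur in transcripts of other genes, among them ACAT2 and SOD2-OT1.

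The 10 genes did not follow 1 course. Over the 45 pairs of these genes, Pearson's r of log2 CPM across the 8 libraries ran from -0.907 (LIF and NFKBIA) to 0.938 (CXCL3 and SOD2), with a median of 0.142. Only 3 pairs were above 0.9, the others being CXCL1 with IL6 (0.932) and SOD2 with NFKBIA (0.911). The neighbours CXCL1 and CXCL2 stood at -0.253, CXCL1 and CXCL3 at -0.347, and CXCL2 and CXCL3 at 0.588. These points are 4 pairs of replicate libraries and are given as a description. Among 10105 other genes searched, the one most like CXCL1 was TNFRSF1A, the main receptor for tumour necrosis factor, at r = 0.995, with mean levels of 109.6 CPM in control and 61.2 at 48 h. The nearest to IL6 was LRIG1 (0.996), with 206 CPM in control and 86.6 at 48 h. LIF was nearest to GRK5 (0.998), PTX3 to CITED2 (0.976) and CXCL2 to PTN (0.986). For CXCL3 it was HAGHL (0.992), for IL8 PCBP3 (0.979) and for SOD2 FBXO17 (0.992). NFKBIA was nearest to UQCRFS1 (0.997) and TNFAIP3 to ZC3H7B (0.992). With so many genes searched over 4 groups, a best r near 1 was likely for any gene. The value also takes no account of the size of a change, so these matches show no link between the genes.

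Around these genes, the subunits of NF-kappaB changed in both directions. The counts of this list and of those that follow are to be set beside the shares of all tested genes. These were 15.0% higher and 13.6% lower after 4 h, and 12.9 and 9.39% after 24 h. After 48 h they were 33.3% higher and 33.5% lower. Of the 5 subunit genes, 1 was higher and 2 lower after 4 h, none was higher and 2 were lower after 24 h, and 3 were higher and 1 lower after 48 h, with medians of 0.03, 0.03 and 0.35 beside -0.0040, 0.015 and -0.022 over all tested genes. NFKB1, which encodes p105 and p50, was lower at all 3 times: it was at 91.2 ± 0.52 CPM (SD, n = 2) in control and at 61.9 ± 0.43, 65.1 ± 0.53 and 61.4 ± 6.82 at 4, 24 and 48 h. Its log2 change at 48 h was -0.57 (SE 0.08, edgeR adjusted p = 6.17e-05). NFKB2 and RELB, the pair of the non-canonical pathway, rose at 48 h. NFKB2 went from 105.5 ± 5.33 to 158 ± 2.24 CPM (log2 change 0.58, SE 0.07, edgeR adjusted p = 1.52e-05). RELB went from 63.3 ± 0.19 to 99.7 ± 5.31 CPM (log2 change 0.66, SE 0.08, edgeR adjusted p = 2.05e-05). RELA had a log2 change of 0.35 at 48 h (edgeR adjusted p = 0.000732), which was lost with library totals (0.075, adjusted p = 0.338).

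Of 12 further inhibitors and feedback genes, 2 were higher and 2 lower after 4 h, 1 was higher after 24 h, and 5 were higher and 6 lower after 48 h, with medians of 0.05, 0.02 and -0.10. With library totals the 48 h count was 2 higher and 7 lower, beside 2742 higher and 6729 lower of all 14448 tested genes. ZC3H12A, which encodes the ribonuclease regnase-1 that degrades IL6 mRNA, fell from 91.8 ± 3.18 CPM in control to 15.9 ± 5.0 at 48 h (log2 change -2.53, SE 0.15, edgeR adjusted p = 9.63e-08). NFKBIZ, an atypical IkappaB protein that acts in the nucleus as a coactivator for genes such as IL6, was lower at 4 h with a log2 change of -0.73 (SE 0.10, edgeR adjusted p = 0.000317). At 48 h its change was -1.25 (SE 0.10, edgeR adjusted p = 1.03e-06). TNIP1, a partner of A20, was lower at 48 h with a log2 change of -0.67 (SE 0.07, edgeR adjusted p = 9.94e-06). TAX1BP1, another adaptor of A20, was higher by 0.72 (SE 0.06, edgeR adjusted p = 7.63e-07). The partners of A20 thus moved in different directions at 48 h.

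Of 23 kinases and adaptors of the pathway, 3 were higher and 1 lower after 4 h, 4 were higher and 1 lower after 24 h, and 8 were higher and 11 lower after 48 h, with medians of 0.0040, 0.07 and -0.02. With library totals the count at 48 h was 4 higher and 13 lower, beside 2742 higher and 6729 lower of all 14448 tested genes. RIPK1, the kinase that links the tumour necrosis factor receptor to NF-kappaB, was at 22.5 ± 1.35 CPM in control and 32.7 ± 0.58 at 4 h (log2 change 0.54, SE 0.09, edgeR adjusted p = 0.00165). At 48 h it was at 5.94 ± 0.45 CPM (log2 change -1.92, SE 0.11, edgeR adjusted p = 6.89e-08). MYD88, the adaptor of interleukin 1 and Toll-like receptors, was lower at 48 h with a log2 change of -1.41 (SE 0.09, edgeR adjusted p = 2e-07).

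Of 16 ligands and receptors upstream of NF-kappaB, 13 passed the filter. Of those, 4 were higher and 1 lower after 4 h, 4 were lower and none higher after 24 h, and 2 were higher and 8 lower after 48 h, with medians of 0.20, -0.27 and -0.84. With library totals none rose and 10 fell at 48 h, when 2742 rose and 6729 fell of all 14448 tested genes. IL1B, the cytokine interleukin 1 beta, was at 2401 ± 281 CPM in control, 4549 ± 271 at 4 h, 2911 ± 262 at 24 h and 617 ± 145 at 48 h. It rose at 4 h (log2 change 0.92, SE 0.13, edgeR adjusted p = 0.000473) and was lower at 48 h (log2 change -1.96, SE 0.14, edgeR adjusted p = 3.27e-07). IL1R1, its receptor, was at 69.2 ± 2.03 CPM in control, 84.5 ± 2.61 at 4 h, 41.1 ± 2.02 at 24 h and 24.1 ± 0.51 at 48 h. Its log2 change was 0.29 at 4 h (SE 0.07, edgeR adjusted p = 0.00991), which was lost without control library 2 (adjusted p = 0.0928) or 4 h library 2 (0.0949), and -1.52 at 48 h (SE 0.07, edgeR adjusted p = 2.24e-08). TNFRSF1A had a log2 change of -0.84 at 48 h (SE 0.06, edgeR adjusted p = 6.02e-07).

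Of 30 other known targets of NF-kappaB, 27 passed the filter. Of those, 9 were higher and 8 lower after 4 h, 4 were higher and 6 lower after 24 h, and 7 were higher and 15 lower after 48 h, with medians of -0.06, -0.08 and -0.99. With library totals 4 rose and 17 fell at 48 h, when 2742 rose and 6729 fell of all 14448 tested genes. CSF3, the granulocyte growth factor G-CSF, stayed at 1506 to 1628 CPM in the group means up to 24 h and was at 101 ± 3.87 at 48 h (log2 change -4.00, SE 0.10, edgeR adjusted p = 3.57e-10). CCL2, a monocyte attractant, went from 18.0 ± 0.76 to 1.25 ± 0.16 CPM at 48 h (log2 change -3.84, SE 0.15, edgeR adjusted p = 6.3e-09). IL11, like LIF a gp130 cytokine, was at 71.6 ± 7.41 CPM in control, 572 ± 46.4 at 4 h, 70.4 ± 11.1 at 24 h and 16.8 ± 0.049 at 48 h. It rose at 4 h (log2 change 3.00, SE 0.11, edgeR adjusted p = 3.1e-08), as LIF did, and was lower at 48 h (log2 change -2.09, SE 0.12, edgeR adjusted p = 6.5e-08). MMP3, a matrix metalloproteinase, was higher at all 3 times, with a log2 change of 0.95 at 48 h (SE 0.06, edgeR adjusted p = 2.43e-07). CXCL5, a further chemokine of the CXCL1 cluster named here after its values were seen, had a log2 change of -1.68 at 48 h (SE 0.09, edgeR adjusted p = 6.28e-08).

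**Figure D4:**
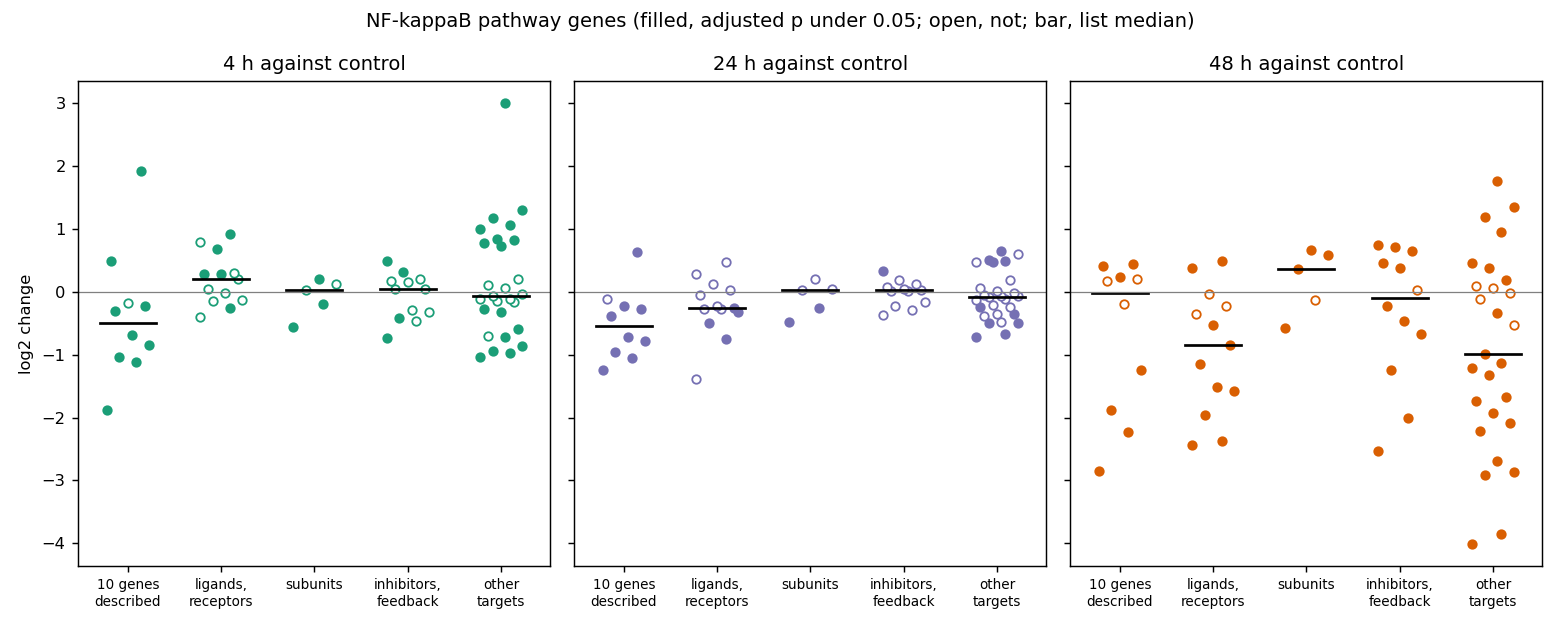
Log2 change against control (vertical axis) of the 10 genes and of the tested genes in 4 lists along the horizontal axis (upstream ligands and receptors, subunits, inhibitors and feedback, other targets), with 1 panel per time; each point is 1 gene, filled where the adjusted p is under 0.05, and bars are medians. The medians of the 4 lists at 48 h run from 0.35 for the subunits to -0.99 for the other targets.

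The receptors for these chemokines and cytokines, with their signalling genes, made a list of 9 genes, of which 6 passed the filter. CXCR1, CXCR2 and ACKR1, the chemokine receptors, had at most 1 count in any library. Of the 6 tested genes, 3 were higher and none lower after 4 h, none was called after 24 h, and 3 were higher and 2 lower after 48 h, with medians of 0.17, -0.04 and 0.23. With library totals 1 rose and 2 fell at 48 h, and the median was -0.048. Of all 14448 tested genes, 2742 then rose and 6729 fell. IL6R, the receptor subunit specific to IL6, was higher at 4 h (log2 change 0.66, SE 0.11, edgeR adjusted p = 0.00121). SOCS3, the feedback inhibitor that STAT3 induces downstream of LIF and IL6, was at 90.6 ± 5.57 CPM in control, 128 ± 5.55 at 4 h, 88.1 ± 2.39 at 24 h and 10.6 ± 2.64 at 48 h. Its log2 change was 0.50 at 4 h (SE 0.11, edgeR adjusted p = 0.00558), which was lost without control library 2 (adjusted p = 0.0660) or 4 h library 1 (0.0562). At 48 h it was -3.09 (SE 0.13, edgeR adjusted p = 7.41e-09). LIFR, the receptor for LIF, was lower at 48 h with a log2 change of -1.48 (SE 0.22, edgeR adjusted p = 0.000124), from 52.0 ± 2.21 to 18.6 ± 8.91 CPM.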

How the data were processed

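RNA-seq libraries of U87MG cells, 2 per group, were sequenced. Each deposited file lists 1 library's read counts by gene symbol. The values are whole numbers with unequal totals, so the authors left them unscaled. Per the submitters' processing notes, Bowtie was used with hg19, also named GRCh37. Not given in the sources used here were its version, the counter, the annotation and whether strand was used. Groups and replicate numbers came from the labels. The 10 genes and all gene lists were chosen with earlier results of these data known, so they are not independent of them. In each file 28 symbols had become dates and held 0.191 to 0.224% of counts.

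Counts were fitted in R 4.3.3 with edgeR 4.0.16 (filterByExpr, 14448 genes; TMM factors 0.870 to 1.08; glmQLFit and glmQLFTest, two-sided). A single fit of the 8 libraries left 4 residual degrees of freedom, with a common dispersion of 0.00512. Standard errors were obtained as the size of the log2 change over the root of F. Named were the 10 genes; any gene of the subunit, inhibitor, receptor and mRNA decay lists; of every other list up to 3 called genes with the smallest p per comparison with control; and, for each of the 10, the gene with the highest r among genes called at least once whose mean log2 CPM was 2 or more. Log2 CPM used a prior count of 2. Lists were described by counts and medians, with no set test. Promoter windows are RefSeq's. Shared stretches were counted in GENCODE v29 transcripts with Python 3.11.15. No coordinates were converted between builds.

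Alternatives were DESeq2 1.42.0, its size factors in edgeR, library totals, limma-voom (limma 3.58.1), no filter (19903 genes), a filter of 5 CPM or more in 2 libraries (11076 genes), a replicate block, fewer groups in the fit, a threshold of 1 on the log2 change, and omission of single libraries. A library left alone in its group was assumed to vary like the others. The steps were tested on simulated data: for 4 h against control 97% of 100 genes changed 2-fold and 81% of 100 changed 1.5-fold were recovered, with 10 of 14039 unchanged genes called. For 48 h against control the values were 92 and 83%, with 12 of 14038 called. Only these few genes were changed, in random directions, so the simulation could not check the scaling at 48 h.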

Additional observations from a re-analysis of the deposited data

Results flagged for a closer look

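4 of the 10 genes were called on opposite sides of control at 2 times, with the difference between those times also called, and the comparisons share the same controls. Of all 14448 tested genes, 2314 (16.0%) met the same condition for at least 1 pair of times. The 10 genes were chosen with earlier results of these data known, so this comparison describes them and is no test. Several of the calls were fragile. CXCL3 at 48 h kept its call in 9 of 16 alternatives and SOD2 at 4 h in 14 of 17. NFKBIA kept its call in 13 of 17 at 4 h and in 13 of 17 at 24 h. LIF went from a log2 change of 1.92 at 4 h to -1.88 at 48 h, a difference of -3.80 (edgeR adjusted p = 1.12e-10). From its 24 h value of 0.64 the difference was -2.52 (edgeR adjusted p = 1.11e-09). CXCL3 went from -1.06 at 24 h to 0.24 at 48 h, a difference of 1.30 (edgeR adjusted p = 3.93e-07). From its 4 h value of -0.68 the difference was 0.92 (edgeR adjusted p = 4.52e-06). SOD2 went from -0.71 at 24 h to 0.44 at 48 h, a difference of 1.15 (edgeR adjusted p = 1.62e-07). From its 4 h value of -0.31 the difference was 0.75 (edgeR adjusted p = 3.73e-06). NFKBIA went from -0.28 at 24 h to 0.42 at 48 h, a difference of 0.69 (edgeR adjusted p = 3.03e-06). From its 4 h value of -0.23 the difference was 0.64 (edgeR adjusted p = 4.93e-06). With library totals as the scaling, CXCL3, SOD2 and NFKBIA were no longer called higher than control at 48 h, at -0.040, 0.16 and 0.14, whereas the calls of LIF against control remained at 4, 24 and 48 h. The share over all tested genes was not computed with that scaling.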

How the results depend on the processing

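The number of the 10 genes called was 9, 9 and 7 for 4, 24 and 48 h against control, 8 for 24 h against 4 h, 8 for 48 h against 24 h and 10 for 48 h against 4 h. Requiring also a log2 change of at least 1 left 4, 2, 4, 1, 5 and 4. The shares of all tested genes were 4.08, 2.87, 21.2, 7.95, 21.7 and 24.9%. At 48 h against control the 4 genes were all lower, as were 2290 of the 3056 genes that met this rule. Leaving out 1 library gave 7 to 9, 6 to 9, 6 to 10, 7 to 8, 7 to 8 and 9 to 10. Same-numbered replicates had deviations from the group means that correlated at -0.0049 to 0.135, so the numbers were not treated as pairs. With the replicate block the counts were 9, 9, 10, 8, 9 and 10. CXCL2, IL8 and TNFAIP3 gained calls at 48 h against control (edgeR adjusted p = 0.0497, 0.0149 and 0.0337), as did TNFAIP3 for 48 h against 24 h (0.0349). The block also raised the share of all tested genes called, to 32.0, 25.9, 68.4, 44.1, 68.5 and 70.8%. In the main fit these shares were 28.6, 22.3, 66.9, 41.5, 66.8 and 69.5%. The counts over all genes moved under other alternatives too, as given below, so the counts of the 10 genes do not stand alone. Over the 1949 values of single genes under alternatives, 1834 kept direction and side of the threshold, 87 lost the call, 17 gained one and 11 reversed. These values pool the 10 genes with genes of the lists, some of which were named for their small p. They therefore do not measure how stable the 10 genes alone are. The reversals were IL6 at 4 h without control library 1 (0.0093; without control library 2 it was -0.36); with library totals CXCL2, CXCL3 and IL8 at 48 h (-0.11, -0.040 and -0.084) and TNFAIP3 for 48 h against 24 h (-0.018); and PTX3 for 48 h against 24 h with DESeq2 size factors (0.040), the DESeq2 test (0.040), no filter (0.0016), without 24 h library 2 (0.049; -0.049 without library 1), without 48 h library 1 (0.0059) and with only these groups (0.015). The causes were not tested. Over all genes, 4127 were called at 4 h and 2227 to 5788 under the alternatives that moved this count most; the values were 3222 and 1349 to 5051 at 24 h, and 5997 and 3823 to 7453 for 24 h against 4 h. With a log2 change of at least 1 there were 589, 415, 3056, 1149, 3128 and 3602. CXCL1 at 48 h rests on the fewest counts, 117 in 1 library.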

Other observations

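The mRNAs of these chemokines and cytokines carry AU-rich elements, through which binding proteins set their decay. Of 6 genes for such proteins, 1 was higher and 1 lower after 4 h, 2 were higher after 24 h, and 4 were higher and 1 lower after 48 h, with medians of -0.12, 0.18 and 0.28. At 48 h 33.3% of all tested genes were higher and 33.5% lower. With library totals 2 rose and 1 fell at 48 h, and the median was 0.0028. Of all 14448 tested genes, 2742 then rose and 6729 fell. ZFP36L1, which promotes decay, was at 215 ± 4.50 CPM (SD, n = 2) in control and 158 ± 3.33 at 4 h (log2 change -0.45, SE 0.07, edgeR adjusted p = 0.000978). Its level at 48 h was 543 ± 56.1 CPM (log2 change 1.33, SE 0.07, edgeR adjusted p = 5.36e-08). ZFP36L2, a close relative, went from 36.5 ± 0.16 to 94.8 ± 24.5 CPM (log2 change 1.38, SE 0.14, edgeR adjusted p = 4.58e-06).

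Of 7 transcription factors that act with NF-kappaB at promoters such as those of IL8 and IL6, 5 were higher and 1 lower after 4 h, 2 were higher and 2 lower after 24 h, and 3 were higher and 2 lower after 48 h, with medians of 0.59, 0.20 and 0.09. The shares of all tested genes at 4 h were 15.0% higher and 13.6% lower, and at 48 h 33.3 and 33.5%. With library totals 3 rose and 4 fell at 48 h, and the median was -0.19. Of all 14448 tested genes, 2742 then rose and 6729 fell. ATF3, a stress-induced factor that can repress inflammatory genes, went from 27.1 ± 0.69 CPM in control to 46.3 ± 1.08 at 4 h and 414 ± 14.6 at 48 h (log2 change at 48 h 3.93, SE 0.08, edgeR adjusted p = 6.95e-11). CEBPB, an activator of IL6, went from 104 ± 1.60 to 226 ± 10.3 CPM at 48 h (2.17-fold, SE of the log2 change 0.08, edgeR adjusted p = 3.18e-07). EGR1, an immediate early factor, was higher at 24 h with a log2 change of 1.11 (SE 0.12, edgeR adjusted p = 0.000117). Its log2 change was 0.59 at 4 h and 1.27 at 48 h. The means were 24.1 ± 0.47 CPM in control, 36.3 ± 4.79 at 4 h, 52.1 ± 4.01 at 24 h and 58.2 ± 10.1 at 48 h.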
